A study of Arabidopsis thaliana with 12 samples.

Results

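The genes described here carry anthocyanin synthesis in Arabidopsis and switch it on. They are 10 loci, namely the enzyme genes CHS (AT5G13930), CHI (AT3G55120), F3H (AT3G51240), TT7 (AT5G07990), DFR (AT5G42800), LDOX (AT4G22880) and UGT79B1 (AT5G54060) and the transcription factor genes PAP1 (AT1G56650), PAP2 (AT1G66390) and TT8 (AT4G09820). They were taken by locus, as the array probes whose accession maps to them. This rule uses no measured value, but the members and the rule were chosen with earlier results of these data known. They make up 10 of the 25405 loci with a probe, and all 10 are among the 19027 loci tested. They hold 13 of the 43603 probes on the array, 3 for TT7, 2 for F3H and 1 for each of the others, and 12 of the 13 passed a filter on dim probes. In the groups that passed this filter (a signal above 100 on all 3 arrays, varying by less than 50% of the mean), LDOX and PAP1 were missing only wild type control, and PAP2 and TT8 passed through the salt groups alone.

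RNA came from whole 10-day-old seedlings of strain Landsberg erecta, either wild type or the proatcape1 mutant, a T-DNA knockout of PROAtCAPE1 (AT4G33730), the precursor gene of the peptide AtCAPE1, represented by 1 line. Seedlings were covered with half-strength MS liquid medium alone (control) or with the same medium holding 125 mM NaCl (salt), and the 4 groups had 3 arrays each, from independent experiments with 10 seedlings per sample. The labels give 0 h for the control and 12 h for the salt samples, so salt and hours cannot be told apart in any salt effect. Each sample was labelled with Cy3 and hybridized to its own Agilent array.

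Anthocyanins are red to purple flavonoid pigments that accumulate in vacuoles of stressed or strongly lit seedlings. Chalcone synthase (CHS), chalcone isomerase (CHI), flavanone 3-hydroxylase (F3H) and flavonoid 3'-hydroxylase (TT7) make the dihydroflavonols that flavonols and anthocyanins share. Dihydroflavonol reductase (DFR), anthocyanidin synthase (LDOX) and the xylosyltransferase UGT79B1 lead from there towards anthocyanins and not to flavonols. The late steps are driven in Arabidopsis by a complex of a MYB factor such as PAP1 or PAP2, a bHLH factor such as TT8 and the WD40 protein TTG1.

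Values per array are given as relative signal, the background-corrected intensity divided by the 75th percentile of its array, so that a value of 1 equals that percentile. Relative signals of different genes come from different probes and are not compared with each other. Changes are differences of log2 relative signal with the standard error (SE) of 1 limma fit over the 12 arrays, from 3 arrays per group. A gene is said to rise, fall, be higher or be lower, or to be called, when it passed both limits, an adjusted p no higher than 0.05 over the 19027 loci and a change of more than 1.5-fold. The median change of all loci was −0.11 for salt in wild type and −0.13 for salt in proatcape1, and lay between −0.03 and 0.00 in the other comparisons. In a bulk sample of whole seedlings, more RNA per cell and more cells of the type that holds it cannot be told apart.

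On the arrays, between 71.8% and 78.8% of probes were well above background, and no spot was saturated. PROAtCAPE1 was measured first as a check of the labels. Its relative signal was 0.274, 0.364 and 0.286 in wild type control and 0.0025, 0.00183 and 0.00163 in proatcape1 control, where it was not well above background on any array. Its log2 difference in control was −7.29 (adjusted p = 1e-07 in the limma fit). For a lower bound, the mutant level on each array was set to the probe's own signal or, if higher, to that of the dimmest probe well above background. With the scanner software's background correction, PROAtCAPE1 was then lower in proatcape1 by at least 75.9-fold. With another background correction, normexp, which keeps dim signals away from 0, its log2 difference was −3.61. All 5 shoot markers and all 5 root markers were well above background on every array, as the label of whole seedlings has it.

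**Figure D1:**
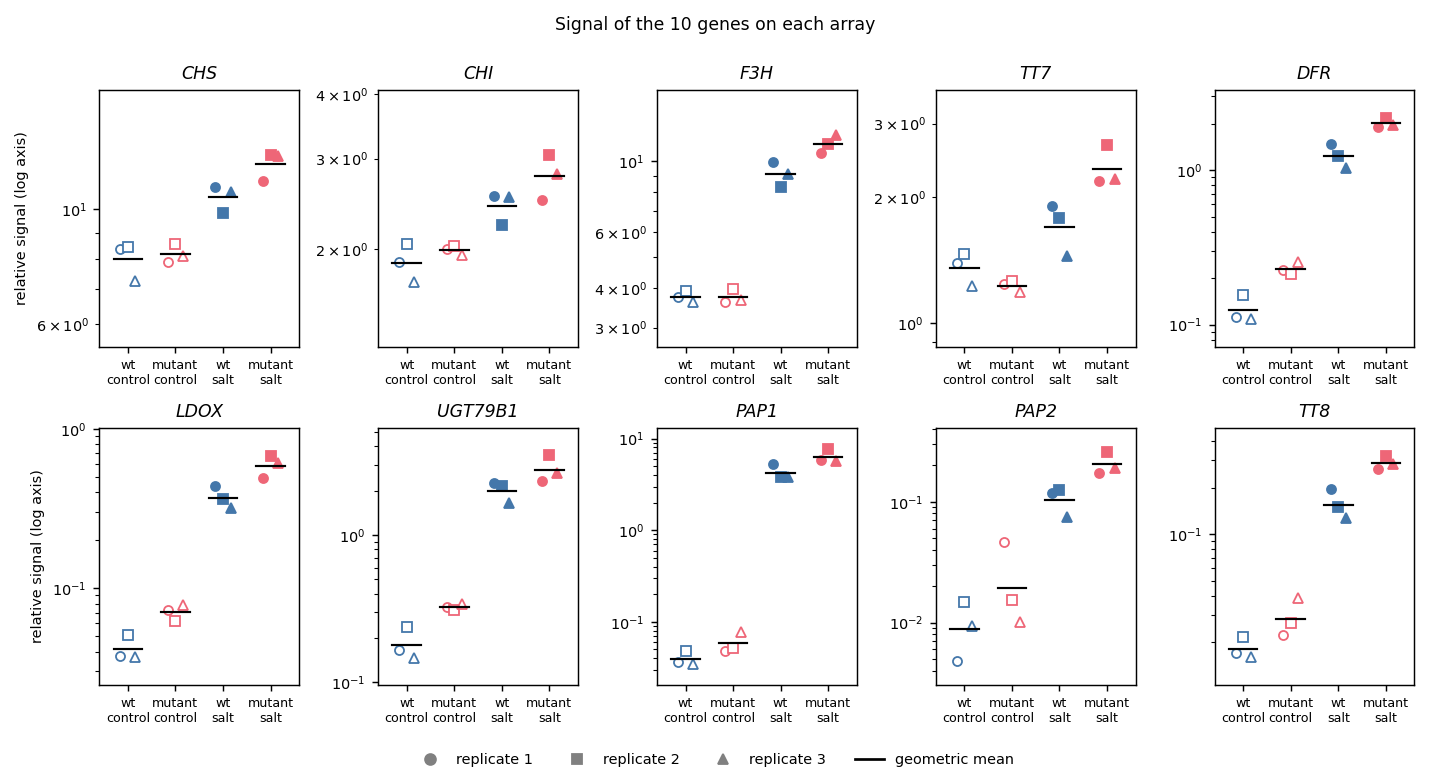
Relative signal (log axis, 1 = the 75th percentile of the array) of the 10 genes on each of the 12 arrays, with open symbols for control, filled symbols for salt, the symbol shape for the replicate and a line at the geometric mean of a group. CHS and CHI change by 0.36 to 0.58 on the log2 scale with salt, DFR, LDOX, UGT79B1 and TT8 stand 8.23- to 11.1-fold apart between control and salt in their fitted folds, and PAP1 stands 106- and 109-fold apart.

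Salt raised the late enzymes and all 3 regulators in both genotypes and left CHS and CHI, the first steps of the pathway, under 1.5-fold. In wild type 7 of the 10 genes rose and none fell, where 17.5% of all loci tested rose and 21.8% fell. In proatcape1 8 of the 10 rose and none fell, where 19.6% of all loci rose and 26.2% fell. Both counts include PAP2 and TT8, which passed the filter through the salt groups alone. With no filter on dim probes the counts were again 7 and 8. Over the 10 genes, the salt effect had a median of 3.13 in wild type and of 3.07 in proatcape1. Every salt array lay above every control array for 9 of the 10 genes in wild type, the exception being TT7, and for all 10 in proatcape1, where 32.8% and 34.9% of all loci did so.

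The first committed enzyme, CHS, changed little. The relative signal of CHS was 8.37, 8.46 and 7.25 in wild type control, 7.89, 8.54 and 8.12 in proatcape1 control, 11, 9.81 and 10.8 in wild type salt and 11.3, 12.7 and 12.6 in proatcape1 salt. The salt groups did not overlap the control groups, yet the change of CHS was 0.39 in wild type (SE 0.07, adjusted p = 0.000525) and 0.58 in proatcape1 (SE 0.07, adjusted p = 2.45e-05), both under the 1.5-fold limit, which is 0.58 when rounded. In proatcape1 CHS stood so close to this limit that it was called with quantile normalization (0.65), with scaling to the median (0.60) and without proatcape1 control replicate 2 (0.61) or proatcape1 salt replicate 1 (0.63). CHI, which closes the chalcone ring, behaved alike, with 1.89, 2.04 and 1.73 in wild type control and 2.00, 2.02 and 1.94 in proatcape1 control. Its salt arrays read 2.54, 2.22 and 2.52 in wild type and 2.49, 3.05 and 2.80 in proatcape1. Its changes of 0.36 in wild type (adjusted p = 0.00218) and 0.48 in proatcape1 (adjusted p = 0.000296) were again too small to be called.

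F3H, which hydroxylates the flavanone, was the 1 early enzyme that rose in both genotypes. Its relative signal was 3.74, 3.92 and 3.61 in wild type control, 3.61, 3.96 and 3.66 in proatcape1 control, 9.97, 8.29 and 9.10 in wild type salt and 10.65, 11.3 and 12.1 in proatcape1 salt. The rise was 1.27 (SE 0.07, adjusted p = 5.97e-08) in wild type, a fold of 2.42, and 1.60 (SE 0.07, adjusted p = 8.11e-09) in proatcape1, a fold of 3.03. The second, dimmer probe of F3H gave 1.26 and 1.74. TT7, which adds the 3' hydroxyl group of cyanidin, read 1.39, 1.46 and 1.23 in wild type control, 1.24, 1.26 and 1.19 in proatcape1 control, 1.90, 1.79 and 1.44 in wild type salt and 2.18, 2.67 and 2.21 in proatcape1 salt. Wild type salt replicate 3 lay within the range of the wild type controls, and the change there was 0.33 (SE 0.11, adjusted p = 0.0186) and was not called. In proatcape1 TT7 rose by 0.93 (SE 0.11, adjusted p = 1.29e-05).

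The 3 late enzymes rose by 3.16 to 3.47 in wild type, or 8.93- to 11.1-fold, and by 3.04 to 3.13 in proatcape1, or 8.23- to 8.73-fold. DFR, the reductase at the branch to anthocyanins, had a relative signal of 0.112, 0.156 and 0.109 in wild type control, 0.225, 0.214 and 0.254 in proatcape1 control, 1.47, 1.23 and 1.03 in wild type salt and 1.89, 2.18 and 1.97 in proatcape1 salt. Its 4 groups did not overlap, in the order wild type control, proatcape1 control, wild type salt and proatcape1 salt. The salt effect on DFR was 3.31 (SE 0.15, adjusted p = 1.12e-08) in wild type and 3.13 (SE 0.15, adjusted p = 1.18e-08) in proatcape1.

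LDOX, which oxidizes leucoanthocyanidins to the coloured anthocyanidins, showed the same order without overlap. Its relative signal was 0.0373, 0.0505 and 0.0372 in wild type control, 0.0731, 0.0626 and 0.0781 in proatcape1 control, 0.436, 0.361 and 0.317 in wild type salt and 0.488, 0.672 and 0.607 in proatcape1 salt. Salt raised LDOX by 3.16 (SE 0.16, adjusted p = 2.38e-08) in wild type and by 3.04 (SE 0.16, adjusted p = 2.23e-08) in proatcape1. Over the alternatives and omitted arrays these rises of LDOX were at the lowest 2.63 in wild type and 2.70 in proatcape1. UGT79B1, which adds xylose to the 3-O-glucoside, read 0.166, 0.239 and 0.147 in wild type control, 0.326, 0.309 and 0.340 in proatcape1 control, 2.26, 2.14 and 1.66 in wild type salt and 2.32, 3.49 and 2.65 in proatcape1 salt. Its groups did not overlap either, although proatcape1 salt replicate 1 lay close to the highest wild type salt array. Its rise was 3.47 (SE 0.19, adjusted p = 4.34e-08) in wild type and 3.10 (SE 0.19, adjusted p = 7.02e-08) in proatcape1.

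Of the 10 genes, the MYB gene PAP1 had the highest salt effect in both genotypes. Its relative signal was 0.0369, 0.0481 and 0.0351 in wild type control, 0.0483, 0.0523 and 0.0778 in proatcape1 control, 5.25, 3.78 and 3.79 in wild type salt and 5.84, 7.64 and 5.74 in proatcape1 salt. In wild type PAP1 rose by 6.73 (SE 0.21, adjusted p = 7.26e-10), a fold of 106, and in proatcape1 by 6.77 (SE 0.21, adjusted p = 4.86e-10), a fold of 109. With normexp these rises were 6.03 and 6.21. The control signals of PAP1 were well above background on all 6 arrays.

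PAP2, a close relative of PAP1, was dim in control and gave 0.00485, 0.0148 and 0.00936 in wild type and 0.0463, 0.0153 and 0.0102 in proatcape1. It was well above background on 2 of the 3 wild type control arrays and on all of the other groups. Under salt it gave 0.118, 0.125 and 0.0743 in wild type and 0.174, 0.257 and 0.191 in proatcape1. Replicate 1 of proatcape1 control stood apart, well above the other arrays of its group. Salt raised PAP2 by 3.56 (SE 0.53, adjusted p = 9.22e-05) in wild type and by 3.40 (SE 0.53, adjusted p = 0.000112) in proatcape1, or by 4.03 (adjusted p = 1.13e-05) without that array. Under normexp, over all arrays, PAP2 rose by 1.93 in wild type and 2.27 in proatcape1. PAP2 has close relatives (MYB113 and MYB114), and whether its 1 probe reads them too was not tested.

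TT8, the bHLH partner of the MYB factors, had a relative signal of 0.0170, 0.0217 and 0.0160 in wild type control and 0.0221, 0.0266 and 0.0387 in proatcape1 control. Under salt it read 0.197, 0.151 and 0.126 in wild type and 0.264, 0.321 and 0.286 in proatcape1. Its 4 groups stood in the same order as those of DFR, without overlap. TT8 rose by 3.10 (SE 0.21, adjusted p = 2.08e-07) in wild type and by 3.35 (SE 0.21, adjusted p = 8e-08) in proatcape1, and with normexp by 1.84 and 2.29.

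**Figure D2:**
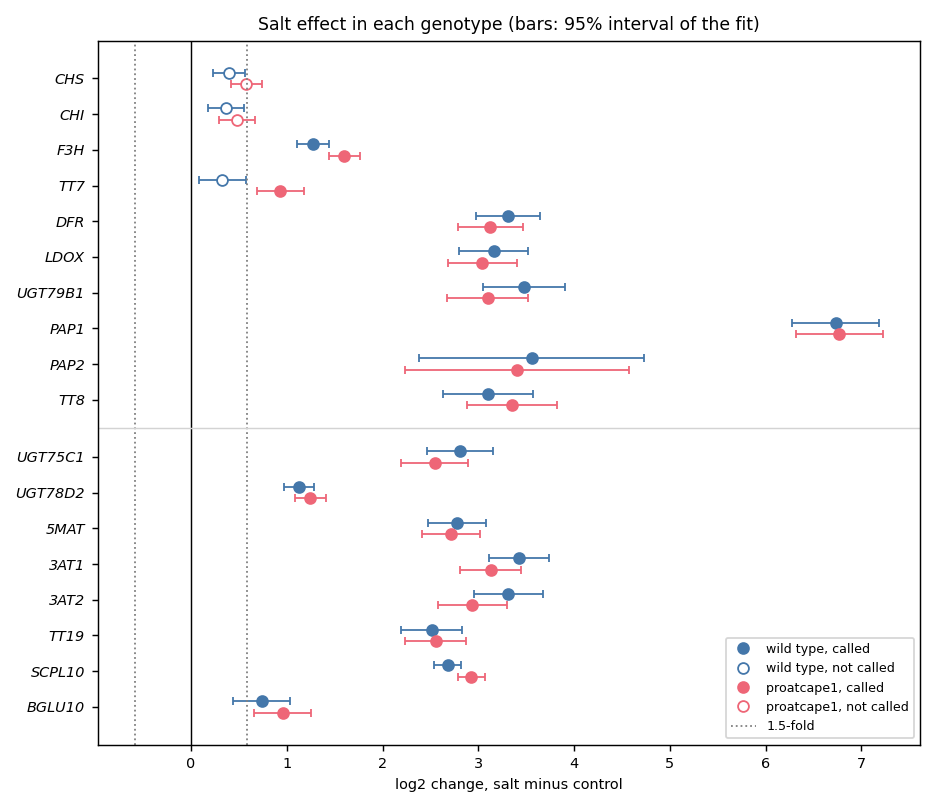
Log2 change from control to salt in wild type (blue) and proatcape1 (red) for the 10 genes and, below the line, 8 genes of anthocyanin decoration and transport, with the 95% interval of the fit, filled symbols for called changes and dotted lines at 1.5-fold. CHS, CHI and TT7 lie between 0.33 and 0.93, F3H between 1.27 and 1.60, the late enzymes between 3.04 and 3.47 and PAP1 at 6.73 and 6.77.

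In control the mutant was above wild type at the late enzymes, and no early enzyme was called. In proatcape1 control 3 of the 10 genes were higher than in wild type control, DFR, LDOX and UGT79B1, and none was lower, where 0.967% of all loci were higher and 1.16% lower. DFR was higher by 0.89 (SE 0.15, adjusted p = 0.00859), a fold of 1.86. LDOX was higher by 0.78 (SE 0.16, adjusted p = 0.0206) and UGT79B1 by 0.85 (SE 0.19, adjusted p = 0.0297). For 5 of the 10 genes, these 3 with PAP1 and TT8, every mutant array lay above every wild type array, as it did for 14.3% of all loci.

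Among the regulators the differences in control were of similar size but were not called. They were 0.55 for PAP1 (SE 0.21, adjusted p = 0.158), 0.65 for TT8 (SE 0.21, adjusted p = 0.111) and 1.14 for PAP2 (SE 0.53, adjusted p = 0.265). Without proatcape1 control replicate 1 the difference of PAP2 was 0.51 (adjusted p = 0.629). In the early enzymes the differences in control lay between −0.14 (TT7) and 0.08 (CHI), and the 95% intervals of CHS, CHI and F3H stayed between −0.17 and 0.27, while that of TT7 ran from −0.39 to 0.10.

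The call of DFR in control was kept when any 1 array was omitted, with changes between 0.80 and 1.06. Those of LDOX and UGT79B1 were lost without wild type control replicate 1 or 3 or without proatcape1 control replicate 1 or 3, where LDOX gave 0.71, 0.71, 0.76 and 0.71 (adjusted p between 0.07 and 0.0851) and UGT79B1 gave 0.79, 0.70, 0.85 and 0.82 (adjusted p between 0.0881 and 0.117). UGT79B1 was also not called without proatcape1 control replicate 2 (0.89, adjusted p = 0.0714), nor with all dim probes kept (adjusted p = 0.0647) or with only the groups compared in the fit (adjusted p = 0.0584), and LDOX was not called with normexp (0.56).

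Under salt the fitted difference of the mutant from wild type lay between 0.19 and 0.99 for the 10 genes. The median over all loci was −0.01. Those of the 10 that were called were late enzymes and regulators. In proatcape1 salt 4 of the 10 were higher than in wild type salt, DFR, LDOX, PAP1 and TT8, and none was lower, where 2.71% of all loci were higher and 1.95% lower. TT8 was higher by 0.90 (SE 0.21, adjusted p = 0.0106), a fold of 1.86, and DFR by 0.71 (SE 0.15, adjusted p = 0.007), a fold of 1.64. LDOX was higher by 0.67 (SE 0.16, adjusted p = 0.0119) and PAP1 by 0.59 (SE 0.21, adjusted p = 0.0476). For 9 of the 10 genes, all but CHI, every mutant array lay above every wild type array, as it did for 22.4% of all loci.

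The other 6 genes were not called under salt. UGT79B1 differed by 0.47 (SE 0.19, adjusted p = 0.0806) and PAP2 by 0.99 (SE 0.53, adjusted p = 0.173). PAP2 was called higher with normexp (0.83, adjusted p = 0.0131) and with only the groups compared in the fit (0.99, adjusted p = 0.0275). The 4 early enzymes differed by 0.19 (CHI) to 0.46 (TT7), and F3H (0.32, adjusted p = 0.00956), TT7 (adjusted p = 0.0111) and CHS (0.21, adjusted p = 0.048) were past the p limit but under 1.5-fold.

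The call of TT8 under salt was kept when any 1 array was omitted, with changes between 0.75 and 1.07. That of DFR was lost without wild type salt replicate 3 (0.58, adjusted p = 0.0257), and that of LDOX without wild type salt replicate 3 (0.56) or proatcape1 salt replicate 2 (0.56). The call of PAP1 stood close to the limit and was lost in 8 of 12 omissions of an array, where its change was 0.46 at the lowest, without proatcape1 salt replicate 2, and 0.66 at the highest, without proatcape1 salt replicate 3. It was also lost with the replicate number as a block (adjusted p = 0.0731), normexp (0.58, just under the fold limit), quantile normalization (0.56, adjusted p = 0.0597), no filter on dim probes (adjusted p = 0.0835), a filter on probes well above background (adjusted p = 0.0569) and the scan day as a block (adjusted p = 0.0596).

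**Figure D3:**
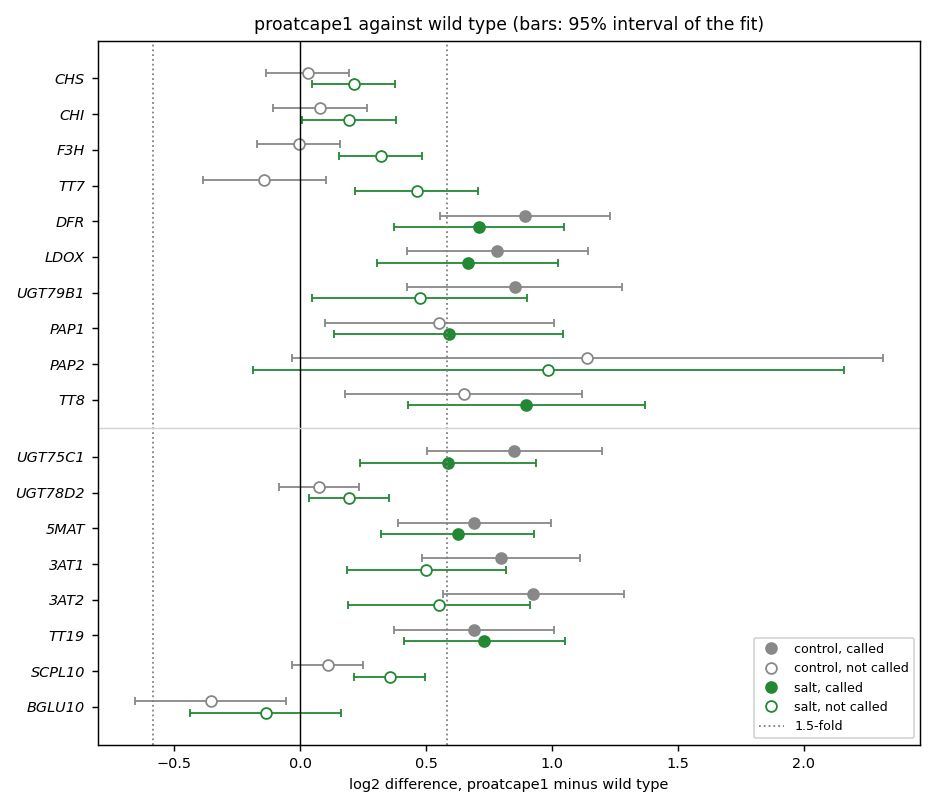
Log2 difference of proatcape1 from wild type in control (grey) and under salt (green) for the same 18 genes, with the 95% interval of the fit, filled symbols for called differences and dotted lines at 1.5-fold. The early enzymes lie near 0 in control, at −0.14 to 0.08, and DFR, LDOX and UGT79B1 lie at 0.78 to 0.89.

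Each slide held 1 array of each group, and the difference between genotypes within a slide varied in a way that the genes shared. In control the late enzymes differed by 0.97 to 1.00 on slide 1 and 1.07 to 1.22 on slide 3, but by 0.31 to 0.46 on slide 2. Wild type control replicate 2, on slide 2, was the highest array of its group for all 10 genes, as it was for 40.4% of all loci. Under salt the late enzymes differed by 0.71 to 0.90 on slide 2 and 0.68 to 0.94 on slide 3, but by 0.04 to 0.37 on slide 1.

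On slide 1, wild type salt replicate 1 was the highest array of its group for 9 of the 10 genes (29.3% of all loci), and proatcape1 salt replicate 1 the lowest of its group for 9 of the 10 (32.6% of all loci). Proatcape1 salt replicate 2 was the highest for 9 of the 10 (32.7% of all loci). Within each slide the difference of the regulators was positive, from 0.04 to 3.26 in control, the highest being PAP2 on slide 1, and from 0.16 to 1.36 under salt. Arrays of the groups compared therefore lay on the same side in each slide for the late enzymes and regulators, at sizes that changed from slide to slide.

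**Figure D4:**
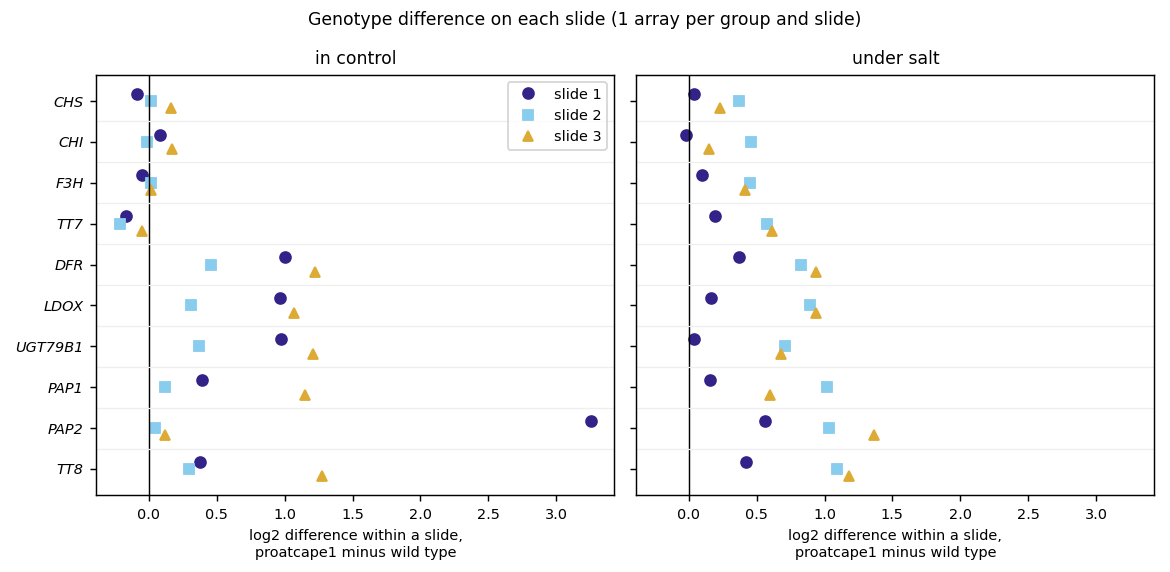
Log2 difference of proatcape1 from wild type within each of the 3 slides, in control (left) and under salt (right), for the 10 genes. DFR, LDOX and UGT79B1 sit lowest on slide 2 in control, at 0.31 to 0.46, and lowest on slide 1 under salt, at 0.04 to 0.37.

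The salt effect itself differed between the genotypes for 1 of the 10 genes, TT7, which was called higher, where 1.27% of all loci were called higher and 1.29% lower. The salt effect on TT7 in proatcape1 exceeded that in wild type by 0.60 (SE 0.16, 95% interval 0.26 to 0.95, adjusted p = 0.0443), a ratio of 1.52, and by 0.36, 0.79 and 0.66 within slides 1, 2 and 3. The second TT7 probe, fitted among all probes past the filter, gave 0.59 (SE 0.14, adjusted p = 0.0363). The remaining dim probe, outside the filter, gave 0.68 (SE 0.25, adjusted p = 0.214) in a fit of all probes. The call of TT7 held in 1 of 12 omissions of an array, that of wild type salt replicate 1, and in the other 11 the difference was 0.49 to 0.68.

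For the other genes the difference of salt effects was not called. F3H was next, at 0.33 (SE 0.10, adjusted p = 0.081), followed by CHS at 0.18 and CHI at 0.11. The late enzymes were at −0.18 for DFR (95% interval −0.66 to 0.29), −0.12 for LDOX (−0.62 to 0.39) and −0.38 for UGT79B1 (−0.98 to 0.23). PAP1 was at 0.04 (−0.61 to 0.68), TT8 at 0.25 (−0.42 to 0.91) and PAP2 at −0.16 (−1.81 to 1.5). These intervals leave room for differences of over 1.5-fold in all 6 of these genes, so equal salt effects are not shown.

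Beyond DFR, LDOX and UGT79B1, the genes that decorate anthocyanins and carry them to the vacuole rose with salt. All 8 of 8 rose in wild type, by a median of 2.73, and all 8 rose in proatcape1, by a median of 2.63, where 17.5% and 19.6% of all loci rose. The acyltransferase genes 3AT1 and 3AT2, which attach coumaroyl groups, rose by 3.42 and 3.31 in wild type and by 3.13 and 2.93 in proatcape1. With normexp the rises were 2.48 and 2.57 in wild type, and 2.47 for 3AT1 in proatcape1. UGT75C1, the 5-O-glucosyltransferase, rose by 2.81 and 2.55, and 5MAT, the malonyltransferase, by 2.78 and 2.71. SCPL10, a sinapoyltransferase, rose by 2.68 and 2.93, and TT19, a glutathione S-transferase needed for vacuolar storage, by 2.51 and 2.55. The smallest rises were those of UGT78D2, the flavonoid 3-O-glucosyltransferase that also serves flavonols, at 1.13 and 1.25, and of the glucosyltransferase BGLU10, at 0.74 and 0.96, of which the rise in wild type was not called without wild type control replicate 2 (0.54).

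In control, 5 of these 8 genes were higher in proatcape1 and none was lower, against 0.967% and 1.16% of all loci. They were UGT75C1 (0.85, adjusted p = 0.0125), 5MAT (0.69, adjusted p = 0.0168), 3AT1 (0.80, adjusted p = 0.0108), 3AT2 (0.93, adjusted p = 0.0101) and TT19 (0.69, adjusted p = 0.021). The others stood at 0.07 for UGT78D2, 0.11 for SCPL10 and −0.36 for BGLU10. TT19, as an example, read 0.429, 0.563 and 0.410 in wild type control and 0.736, 0.694 and 0.814 in proatcape1 control. Under salt 3 of the 8 were higher in proatcape1 and none was lower, TT19 (0.73, adjusted p = 0.0048), 5MAT (0.63, adjusted p = 0.0076) and UGT75C1 (0.59, adjusted p = 0.0173), against 2.71% and 1.95% of all loci.

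In control the calls of UGT75C1, 5MAT and TT19 were lost without wild type control replicate 1 (0.76, 0.63 and 0.64) or replicate 3 (0.76, 0.64 and 0.60), and 5MAT and TT19 also without proatcape1 control replicate 3 (0.58 and 0.63) and TT19 without proatcape1 control replicate 1 (0.70). Under salt UGT75C1 and 5MAT were not called without wild type salt replicate 3 (0.47 and 0.55) or proatcape1 salt replicate 2 (0.53 and 0.53), nor UGT75C1 without proatcape1 salt replicate 3 (0.54). With normexp 3AT1 (0.50) and 5MAT (0.51) were not called in control, nor 5MAT (0.56) and UGT75C1 (0.58) under salt, where UGT75C1 was also lost with quantile normalization (0.58).

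None of the 8 was called for the difference of salt effects, with values between −0.38 and 0.25. Several of these genes have close relatives, and their probes may not separate them. The dimmer second probe of 3AT1 rose by 0.72 in wild type and gave 0.50 in proatcape1, against 3.42 and 3.13 of the brightest probe, so the size of the 3AT1 change depends on the probe. The genotype difference of that 3AT1 probe in control was 0.49 (adjusted p = 0.108) and was not called. The second probe of TT19 gave 0.52 (adjusted p = 0.0297) for the genotype difference in control and 0.41 (adjusted p = 0.0251) under salt, both under 1.5-fold, and the mean of the TT19 probes gave 0.57 under salt, again not called.

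The flavonol branch, which shares the early enzymes, had smaller salt effects, with a median of 0.15 in wild type and 0.16 in proatcape1. Of its 8 genes 6 were tested. In wild type 1 rose, UGT78D1, a rhamnosyltransferase of flavonols, by 1.04 (adjusted p = 1.29e-05), and none fell. Of all loci 17.5% rose and 21.8% fell there, so the share that rose was near that of all loci. In proatcape1 2 of the 6 rose and 1 fell, where 19.6% of all loci rose and 26.2% fell. UGT78D1 rose in proatcape1 by 0.62 (adjusted p = 0.000622), a call lost without proatcape1 control replicate 2 (0.55) or proatcape1 salt replicate 2 (0.51). There CHIL, a chalcone isomerase-like protein that assists CHS, rose by 1.04 (adjusted p = 8.07e-06), while MYB111, an activator of CHS and flavonol synthase, fell by 0.73 (adjusted p = 0.000117). Flavonol synthase itself (FLS1) had salt effects of −0.22 and −0.16 and was not called, nor was 4CL3 (0.51 and 0.48). No flavonol gene was called between genotypes or for the difference of salt effects, in which CHIL stood at 0.46 (adjusted p = 0.107) and MYB111 at −0.42 (adjusted p = 0.124).

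None of the 7 genes of the seed coat proanthocyanidin branch passed the filter. BAN, TT16 and TT1 were not well above background on any array, and AHA10 was on all 12. TT2, a MYB factor of the seed coat, was well above background on 1 wild type salt and 1 proatcape1 salt array.

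Among 8 other activators, 5 were tested. Of these 5, 2 rose in each genotype, where 17.5% of all loci rose in wild type and 19.6% in proatcape1. In proatcape1 1 of them fell, where 26.2% of all loci fell. MYB112, a MYB factor that promotes anthocyanin formation under salinity and high light, rose by 4.34 (SE 0.18, adjusted p = 6.14e-09) in wild type and by 4.05 (SE 0.18, adjusted p = 7.26e-09) in proatcape1. Its relative signal was 0.0454, 0.0807 and 0.0493 in wild type control, 0.0726, 0.0799 and 0.0796 in proatcape1 control, 1.2, 0.980 and 1.28 in wild type salt and 1.3, 1.18 and 1.36 in proatcape1 salt, so that salt and control were far apart and the genotypes overlapped. HYH, a bZIP factor of light signalling, rose by 1.5 and 1.61.

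EGL3, a bHLH relative of TT8, was the 1 activator that fell, in proatcape1 by 0.81 (adjusted p = 2.49e-05), and with normexp it was not called (−0.58). In wild type its salt effect was −0.28 (adjusted p = 0.0311), and the difference between the 2 salt effects was −0.54 (adjusted p = 0.0533). TTG1 (−0.32 and −0.29) and HY5 (0.01 and −0.10) were not called. MYB113, MYB114 and the bHLH gene GL3 did not pass the filter, and no tested activator was called between genotypes.

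Of 12 repressors of the pathway, all tested, 4 rose and 3 fell in each genotype. Of all loci 17.5% rose and 21.8% fell in wild type and 19.6% rose and 26.2% fell in proatcape1, so the share of repressors that fell was near that of all loci. MYBL2, an R3-MYB protein that represses DFR and TT8, read 5.24, 4.08 and 4.69 in wild type control, 3.64, 3.80 and 3.23 in proatcape1 control, 0.701, 0.752 and 0.758 in wild type salt and 0.715, 1.01 and 0.863 in proatcape1 salt. MYBL2 fell by 2.66 (SE 0.12, adjusted p = 1.23e-08) in wild type and by 2.06 (SE 0.12, adjusted p = 5.47e-08) in proatcape1, and the difference of these effects was 0.60 (adjusted p = 0.0626). KFB-CHS, an F-box protein that marks the CHS enzyme for breakdown, fell by 2.57 and 2.18. LBD38, a nitrogen-responsive repressor of PAP1 and PAP2, fell by 1.12 in both genotypes.

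The repressors that rose were MYB7 (1.60 in wild type and 1.87 in proatcape1), MYB32 (1.18 and 1.22) and the small R3-MYB genes TRY (1.53 and 1.78) and ETC1 (0.90 and 0.80). MYB4, the brightest repressor not called, was at −0.01 and 0.02, and LBD37 at −0.47 and −0.50. Between the genotypes 1 of the 12 was called, TRY, which was higher in proatcape1 under salt by 0.60 (adjusted p = 0.0239), a call that was lost in 5 of 12 omissions of an array, with 0.54 at the lowest, without wild type salt replicate 3, and with normexp (0.57). The difference of MYBL2 in control was −0.39 (adjusted p = 0.103) and was not called.

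**Figure D5:**
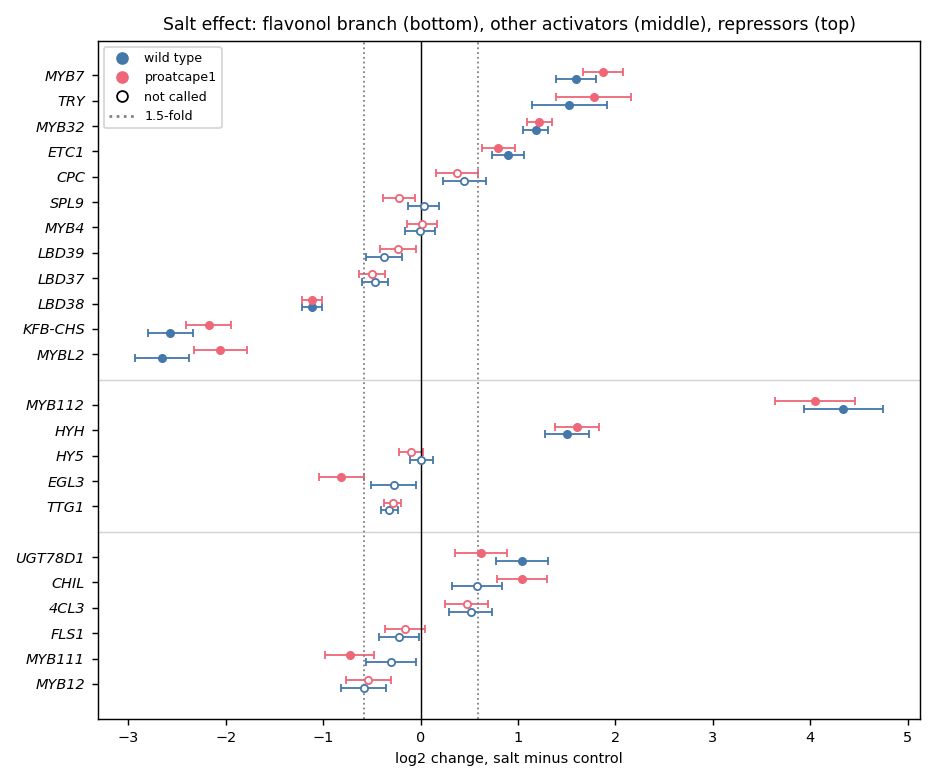
Log2 change from control to salt in wild type (blue) and proatcape1 (red) for the tested genes of the flavonol branch (bottom), the other activators (middle) and the repressors (top), with the 95% interval of the fit and filled symbols for called changes. MYB112 stands at 4.34 and 4.05 among the activators, and MYBL2 and KFB-CHS stand below −2 among the repressors.

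Markers of organs moved with salt. It lowered 4 of the 5 root markers in each genotype, all root hair genes, where 21.8% of all loci fell in wild type and 26.2% in proatcape1. These 4 fell by 1.52 to 2.87 in wild type and 1.71 to 2.93 in proatcape1, while the aquaporin gene PIP2;2 rose by 0.93 and 1.07. The summed relative signal of the 5 root markers, most of it from PIP2;2, was 6.93 to 9.07 in wild type control, 6.35 to 7.80 in proatcape1 control, 10.0 to 12.4 in wild type salt and 10.1 to 12.4 in proatcape1 salt. None of the 5 root markers was called between the genotypes.

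Of the 5 shoot markers, 2 rose with salt in each genotype, LHCB2.1 (1.17 and 1.80) and GLDP1 (0.87 and 1.11). Of all loci 17.5% rose in wild type and 19.6% in proatcape1. The summed relative signal of the shoot markers was 518 to 554 in wild type control, 541 to 602 in proatcape1 control, 521 to 534 in wild type salt and 597 to 642 in proatcape1 salt. By the brightest probe of each gene, all 5 were above wild type in proatcape1 under salt, by 0.17 to 0.57. Each was past the p limit and under 1.5-fold. Of the 19027 loci tested, 2785 were past that p limit upward and 3692 downward, at any fold. In control 4 of the 5 were above wild type, by 0.05 to 0.29. Other probes, fitted among all probes past the filter, varied under salt. For the shoot marker CA1 they gave 0.36 (not called) to 0.72 (adjusted p = 0.000476, called higher). For the shoot marker LHCB1.3 they gave 0.04 (adjusted p = 0.76) to 0.16 (adjusted p = 0.114), and none was called. The part of these organ markers in the differences of the anthocyanin genes was not tested.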

How the data were processed

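The authors labelled total RNA of 12 seedling samples with Cy3, hybridized it to 1 Agilent array each and read the arrays with Feature Extraction 10.7.1.1. The deposited scanner files hold a linear intensity per spot, corrected for background inside each array but without scaling across arrays. The deposited log2 values of the authors, made in GeneSpring against the wild type control arrays, equal the values recomputed here up to an SD of 0.000292. Spots flagged as outliers were dropped, which removed 76 of 43603 probes, and each array's 75th percentile was subtracted from its log2 processed intensities. A probe was kept when signal over 100 and a coefficient of variation under 50% held on all 3 arrays of at least 1 group, limits that the methods state for raw signal. This kept 28833 probes, and the brightest probe of a locus stood for it. The processed files name locus accessions, which were paired with symbols of RefSeq (TAIR10.1).

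Group means were fitted with limma 3.58.1 in R 4.3.3, with empirical Bayes variances, no block and Benjamini-Hochberg adjustment over 19027 loci in each of 5 comparisons. Other steps used Python 3.11.15 (matplotlib 3.10.9, pandas 2.3.3, numpy 2.4.6). The fit was tested on simulated data. Alternatives were the background correction (normexp, offset 50), scaling, filter, use of probes, block, arrays in the fit, intensity trend, the authors' values, the fold limit and the omission of each array. The members, their rule and the gene lists were chosen with earlier results of these data known. All 10 members are named, as are listed genes called in any comparison and the 2 brightest uncalled per list, and a few listed genes named after their values were seen. The number of arrays limits the precision.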

Additional observations from a re-analysis of the deposited data

Results flagged for a closer look

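The salt effect on TT7, the flavonoid 3'-hydroxylase gene, was 0.60 higher on the log2 scale in proatcape1 than in wild type (SE 0.16, adjusted p = 0.0443 in the limma fit), and the test of this difference between the genotypes is what marked it. It was positive on 3 of 3 slides, and over the alternatives and omitted arrays the adjusted p ranged from 0.018 to 0.104.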

How the results depend on the processing

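Counts of genes called higher under salt were 7 in wild type under every omission of an array and 8 or 9 in proatcape1, with 10 in each genotype under no fold limit, and no gene was called lower in any comparison under any alternative. For the genotype effect in control the count of 3 was 1 to 3 over the omitted arrays and 2 with normexp, no filter on dim probes, or only the groups compared. For the genotype effect under salt the count of 4 was 1 to 4 over the omitted arrays, 3 with the blocks, quantile normalization or either change of filter, 5 with only the groups compared and 7 with no fold limit. For the difference of salt effects the count of 1 was 0 to 1 over the omitted arrays and 0 with quantile normalization, no filter on dim probes, or a filter on probes well above background. The causes were not tested.

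Changes of sign occurred for uncalled values of CHS, F3H, LDOX, PAP1 and PAP2. The genotype effect in control went from 0.03 to between −0.041 and 0.071 over the omissions for CHS, and from −0.01 to between −0.048 and 0.025 for F3H, with 0.0046 under normexp. The difference of salt effects became 0.067 with normexp for LDOX and 0.34 with normexp for PAP2, and over the omissions it lay between −0.26 and 0.012 for LDOX, between −0.10 and 0.25 for PAP1 and between −0.62 and 0.48 for PAP2.

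The replicate number equals the slide, so the replicate block and the slide block are the same fit. Samples of one number deviated together only weakly (median correlations of 0.09, −0.05 and 0.04 for numbers 1, 2 and 3), although 11 of 12 arrays correlated best with an array of their own number, and the numbers are not taken as pairs. With the replicate block the counts of the 10 genes called higher were 7 and 8 for the salt effects, 3 in control, 3 under salt and 1 for the difference, and PAP1 under salt kept its 0.59 and was no longer called (adjusted p = 0.0731). The scan day block, chosen after seeing the data, gave PAP1 an adjusted p of 0.0596.

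Signal over background limits PAP2, which was not well above background on 1 wild type control array. PAP2 and TT8 did not pass the filter in either control group, and LDOX and PAP1 did not in wild type control. Over the alternatives and omitted arrays the salt effect of TT8 was at the lowest 1.84 in wild type and 2.29 in proatcape1.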

Other observations

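The loci outside the lists whose log2 signal followed DFR, PAP1 and CHS most closely were ranked by Pearson's r over the 12 arrays, as a description only, since the 12 arrays form 4 groups and salt separates them. For DFR the closest was AT4G22870 (r = 0.999), a locus next to LDOX in the RefSeq annotation, with salt effects of 3.09 in wild type and 2.97 in proatcape1 and a genotype difference of 0.76 in control. AT4G22870 had values close to those of LDOX (3.16, 3.04 and 0.78), and whether its probe also reads LDOX was not tested. It was followed by AT5G02230, AT5G67430, AT1G05870 and the hydroperoxide lyase gene HPL1 (r = 0.995 to 0.996). HPL1 had salt effects of 4.02 and 4.10 and a genotype difference of 0.77 in control, which was not called (adjusted p = 0.118 in the limma fit).

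For PAP1 the closest were APL3, a large subunit of ADP-glucose pyrophosphorylase, AT2G25690, AT4G33905, MIPS2, a myo-inositol-phosphate synthase, and the caleosin gene RD20 (r = 0.998 to 0.999). APL3 had salt effects of 4.27 and 4.35, and RD20 of 9.64 and 9.70. For CHS they were AT5G04920, UNE1, AT4G21740, the dehydrin gene ERD14 and BPA1 (r = 0.980 to 0.984), and ERD14 had salt effects of 1.02 and 1.39.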
